A study of Mus musculus with 30 samples.

Results

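Guanylate-binding proteins (GBPs) and immunity-related GTPases (IRGs) were followed through the transcriptomes of 4 mouse genotypes. The 9 genes examined were the rows named *Gbp2*, *Gbp3*, *Gbp5*, *Gbp6*, *Gbp7*, *Irgm1*, *Irgm2*, *Igtp* and *Iigp1*, 9 of the 55573 rows in each of 2 tables of normalized counts. They were chosen by name, as a gauge of the response to interferon-γ (IFN-γ). The RNA came from retinal pigment epithelia (RPE), the pigmented monolayer behind the photoreceptors, taken at postnatal day 25 (P25), and from bone marrow-derived macrophages (BMDMs), grown for 7 days in medium conditioned by L929 cells. The 30 libraries, each labelled as a biological replicate, comprised RPE of C57BL/6 mice (B6 WT, n = 6) and of the knockout lines *Mertk*-/-V1 (n = 6), *Mertk*-/-V2 (n = 3) and *Mertk*-/-V3 (n = 3), and BMDMs with n = 3 for every genotype.

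*Mertk* encodes a receptor tyrosine kinase that serves the uptake of dying cells and shed photoreceptor tips. The *Mertk*-/-V1 line lacks exon 17, was made in 129P2 embryonic stem cells, keeps a neomycin cassette and carries a 129P2 stretch of chromosome 2 around *Mertk* after at least 10 generations of backcrossing to B6. The *Mertk*-/-V2 line lacks exon 18 and the *Mertk*-/-V3 line exons 3 and 4, the first by Cre deletion of a floxed allele of C57BL/6NJ origin and the other by CRISPR in C57BL/6NJ eggs. No gene among the 9 lies on chromosome 2. RPE was dislodged from the posterior eyecup. In bulk RNA of this kind, fewer cells of a type and less RNA per cell cannot be told apart.

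GBPs and IRGs are GTPases that cells make in large amounts on exposure to interferons, above all IFN-γ. The cytokine binds the receptor chains IFNGR1 and IFNGR2, and the kinases JAK1 and JAK2 pass the signal on to promoter sites called GAS, while complexes that contain IRF9 or factors such as IRF1 bind sites called ISRE. GBPs assemble on the vacuoles and membranes of intracellular bacteria and parasites and help to open them to inflammasomes. Among IRGs, *Iigp1* (Irga6) is an effector that loads onto parasite vacuoles, whereas *Irgm1*, *Irgm2* and *Igtp* (Irgm3) are regulators that stay on the cell's own membranes and hold the effectors inactive.

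The promoters of these genes were searched for letters like those of GAS and ISRE sites. RefSeq windows from 250 bases before to 50 bases after the start of transcription (GRCm38.p6) were at hand for 7 of the 9 genes, in 8 windows, and not for *Gbp6* and *Iigp1*. An ISRE-type match (GAAANNGAAA on either strand) lay in at least 1 window of 7 of 7 genes, and 3.44% of all 32851 single windows hold 1. A GAS-type match (TTCNNNGAA, which reads the same on both strands) lay in those of 4 of 7 genes, *Gbp5*, *Gbp7*, *Igtp* and *Irgm2*, against 8.3% of all windows, and both kinds together occur in 0.454% of all windows. The motifs share letters, and a match is a description of the sequence, not a measured binding site. Shown are the 120 bases before the start of 4 genes, 5′ to 3′ on the gene's own strand, with both kinds of match in capitals: *Gbp3* (chr3:142559924-142560043), *Gbp7* (chr3:142530216-142530335), *Igtp* (chr11:58199436-58199555) and *Irgm2* (chr11:58214857-58214976), all on the plus strand. They were chosen to set this *Gbp3* window, with 2 overlapping ISRE-type matches and no GAS-type match, beside windows that hold both kinds.
Gbp3: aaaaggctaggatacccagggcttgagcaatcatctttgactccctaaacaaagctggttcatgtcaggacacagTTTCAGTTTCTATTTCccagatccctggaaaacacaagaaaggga
Gbp7: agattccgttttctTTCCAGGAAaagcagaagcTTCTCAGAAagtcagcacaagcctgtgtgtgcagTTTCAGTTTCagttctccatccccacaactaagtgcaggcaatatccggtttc
Igtp: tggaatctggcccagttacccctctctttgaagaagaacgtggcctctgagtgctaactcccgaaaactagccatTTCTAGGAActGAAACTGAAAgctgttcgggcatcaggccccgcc
Irgm2: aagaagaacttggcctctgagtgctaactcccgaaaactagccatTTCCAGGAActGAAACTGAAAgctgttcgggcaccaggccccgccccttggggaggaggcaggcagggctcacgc

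In *Igtp* a GAS-type match at -45 to -37 was closely followed by an ISRE-type match at -34 to -25, counted from the start. In *Irgm2* a like pair stood at -75 to -67 and -64 to -55 within similar surrounding letters. In *Gbp7*, GAS-type matches at -106 to -98 and -87 to -79 preceded the ISRE-type match at -53 to -44. The windows of the remaining genes held the ISRE-type match TTTCACTTTC in *Gbp2*, TTTCAATTTC in *Gbp5*, and the overlapping pair GAAATAGAAA and GAAACCGAAA in *Irgm1*, from -30 to -15. The other *Gbp3* window (chr3:142560106-142560405), for a start further along the gene, held no match of either kind before its start.

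**Figure D1:**
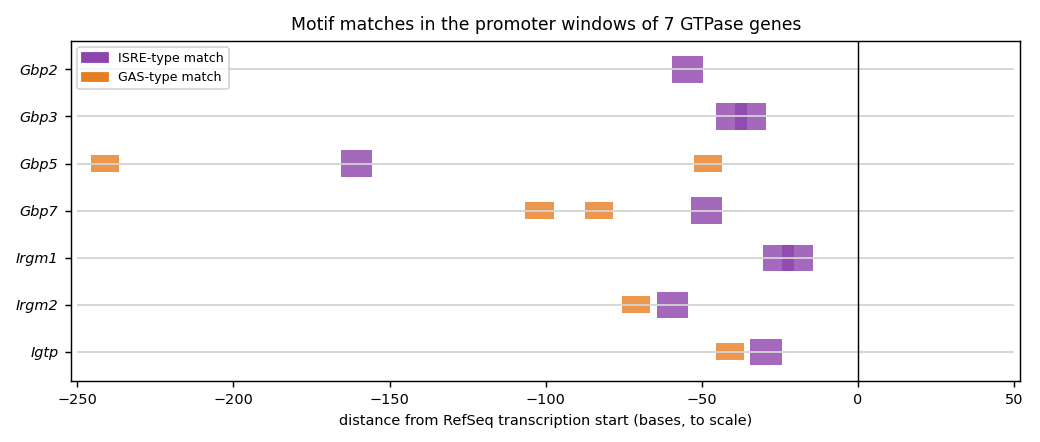
Position of ISRE-type (purple, tall) and GAS-type (orange, short) matches in the promoter windows of 7 of the 9 genes, with the distance from the RefSeq start in bases on the horizontal axis. Each gene has an ISRE-type match before its start, from -165 in Gbp5 to -15 in Irgm1, and 4 genes also have a GAS-type match.

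*Gbp5*, *Gbp7*, *Gbp3* and *Gbp2* lie in this order on the plus strand of chromosome 3 (GRCm38), from 142493978 to 142638008, with *Gbp2b* between the last pair. *Gbp6* lies on the minus strand of chromosome 5 from 105270702 to 105293698, in the second GBP cluster, and *Irgm1* on the minus strand of chromosome 11 from 48861968 to 48871683. *Igtp* (58199556 to 58207591) and *Irgm2* (58199618 to 58222782) overlap on the plus strand of chromosome 11, so reads of their shared part could have been split between them, although the *Irgm2* window shown above lies past the end of *Igtp*. The *Gbp6* transcript is 99.8% identical to *Gm43302* and 98.7% identical to *Gbp10* over nearly all of its length, so its count is uncertain. *Gbp7* shares 637 identical bases with *Gm43802*, and no such long match to another gene was found for the remaining transcripts.

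Total reads were 14137666 to 34124049 per RPE library and 16629659 to 25653814 per BMDM library, and among RPE libraries of B6 WT and *Mertk*-/-V1 the first 3 replicates (at least 23417838 reads) were deeper than the last 3 (at most 20779930). *Mertk* itself was counted at 2638 to 3924 in RPE of B6 WT, 919 to 1717 in *Mertk*-/-V1 and 444.0 to 1106 in *Mertk*-/-V3, and B6 WT overlapped with neither. In *Mertk*-/-V2 it was at 3565 to 5311 in RPE, and in BMDMs it was higher than in B6 WT (log2 fold change 0.43 ± 0.06 SE, adjusted p = 0.00129, limma), so that a count over the whole gene, most of whose exons remain, did not check the *Mertk*-/-V2 label. Markers of RPE such as *Rpe65* summed to 219103 to 917388 per RPE library and to at most 54.0 in BMDMs, and those of macrophages to 324048 to 356546 in BMDMs. The RPE preparations also held markers of rods (29575 to 793398 per library), macrophages (7329 to 13586), choroidal fibroblasts (19222 to 50998) and endothelium (3183 to 8840). The 11 markers of T and NK cells, which make IFN-γ, summed to no more than 106, and 9 of them had a mean under 10. Their sums were 33.0 to 61.5 in B6 WT, 42.5 to 106 in *Mertk*-/-V1, 64.5 to 103 in *Mertk*-/-V2 and 44.6 to 88.5 in *Mertk*-/-V3, so that every *Mertk*-/-V2 library lay above B6 WT.

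In RPE, 3 libraries led their genotype for most of these genes. *Mertk*-/-V3 replicate 2 and *Mertk*-/-V2 replicate 3 were each the highest of their genotype for 8 of 9 genes and *Mertk*-/-V1 replicate 2 for 6 of 9. On the scale of log2 levels centred per gene and averaged over the 9 genes, *Mertk*-/-V3 replicate 2 stood at 0.75, against -0.40 and -0.14 in the other *Mertk*-/-V3 libraries, and *Mertk*-/-V1 replicate 2 at 0.80, against 0.07 to 0.41 in the other 5. *Mertk*-/-V2 replicate 3 was less far from its group, at 0.27 against 0.0098 and 0.11. All 6 B6 WT libraries lay between -0.46 and -0.36. *Mertk*-/-V2 replicate 3 and *Mertk*-/-V3 replicate 2 also had the highest T and NK cell marker sums of their genotypes. In *Mertk*-/-V1 the highest sum was in replicate 4. The part of T and NK cells was not tested.

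On the scale of reads per exon length and library size (RPKM), *Gbp3* had the highest mean in RPE of B6 WT (11.3 ± 1.98 SD, n = 6), followed by *Gbp2* (8.36 ± 3.31), *Gbp7* (6.32 ± 0.298), *Irgm1* (5.75 ± 0.336), *Igtp* (4.91 ± 0.726) and *Irgm2* (3.56 ± 0.685). *Gbp6* (0.989 ± 0.239), *Iigp1* (0.498 ± 0.144) and *Gbp5* (0.367 ± 0.0921) were lower. Neighbours in this order overlapped between libraries, except *Irgm2* with *Gbp6* and *Gbp6* with *Iigp1*.

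In BMDMs the regulators led instead. *Irgm1* had the highest RPKM in B6 WT (7.82 ± 0.425 SD, n = 3), then *Igtp* (6.07 ± 0.234), *Irgm2* (5.67 ± 0.419), *Gbp2* (2.10 ± 0.262), *Gbp7* (0.852 ± 0.358), *Gbp3* (0.758 ± 0.0892), *Gbp5* (0.156 ± 0.0704) and *Iigp1* (0.0606 ± 0.00798). *Igtp* overlapped with *Irgm2* and *Gbp7* with *Gbp3*, and the other neighbours did not overlap. *Gbp6* had 0 to 2 reads per B6 WT library, at or under the limit of 3 reads that a count of 0 allows. The mean RPKM in RPE was 14.9 times that in BMDMs for *Gbp3*, 8.22 times for *Iigp1*, 7.41 times for *Gbp7*, 3.98 times for *Gbp2* and 2.35 times for *Gbp5*, with no overlap, but 0.735 times for *Irgm1* and 0.627 times for *Irgm2*. The tissues were prepared and normalized separately, and these ratios were not tested.

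**Figure D2:**
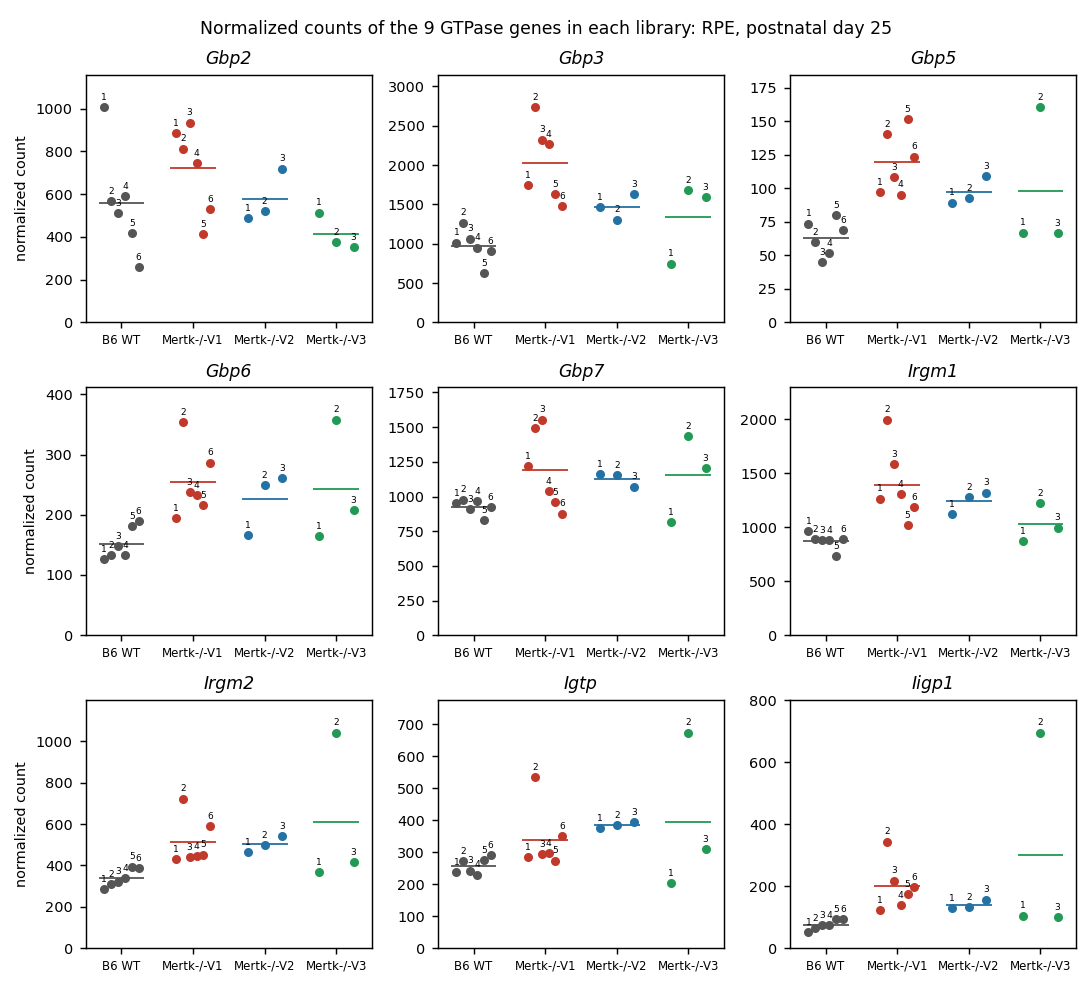
Normalized counts (vertical axes, from 0) of the 9 genes in each RPE library at P25, with the replicate number above each point and a bar at the mean of the genotype (6, 6, 3 and 3 libraries). The 6 Mertk-/-V1 libraries lie above all 6 B6 WT libraries for Gbp3, Gbp5, Gbp6, Irgm1, Irgm2 and Iigp1, and replicate 2 of Mertk-/-V3 is the highest of its genotype in every panel but Gbp2.

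Whether loss of *Mertk*, or the background that the *Mertk*-/-V1 line carries, goes along with an interferon-type program in RPE was examined first by comparing *Mertk*-/-V1 with B6 WT. *Gbp3* was 2.08-fold higher in *Mertk*-/-V1 and was the 1 gene of the 9 that passed the test. The other 8 had positive fold changes that did not pass, and in 6 of the 9 every *Mertk*-/-V1 library lay above every B6 WT library. Passing means an adjusted p under 0.05 in a limma fit of log2(normalized count + 1) to all 4 genotypes, adjusted over 18832 genes whose mean normalized count reached 10. Of all genes tested, 0.388% passed, 6.81% had an unadjusted p under 0.05 (7 of the 9 members) and 0.568% had every *Mertk*-/-V1 library above every B6 WT library. The median log2 fold change of the 9 genes was 0.64, beside 0.02 over all genes tested.

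*Gbp3*, a GBP of the chromosome 3 cluster, was counted at 627.7 to 1267 in B6 WT (median 981.9) and at 1473 to 2740 in *Mertk*-/-V1 (median 2004). The 6 libraries of each genotype did not overlap. The log2 fold change was 1.06 ± 0.21 SE (adjusted p = 0.0316, limma), short of the fold that the study set for differentially expressed genes. The sign of the difference was the same under all 23 alternatives, but the call was lost without B6 WT replicate 1, 3, 4, 5 or 6 or *Mertk*-/-V1 replicate 2, 3 or 4, left out singly, where the adjusted p was 0.0606 to 0.0811. It was 0.96 without *Mertk*-/-V1 replicate 2, and 1.01 and 1.11 within replicates 1 to 3 and 4 to 6 alone, where the gene did not pass (adjusted p = 0.473 and 0.557).

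*Gbp5*, whose protein promotes inflammasome assembly, lay at 44.7 to 79.9 in B6 WT (median 64.4) and at 95.4 to 151.9 in *Mertk*-/-V1 (median 116.0). The genotypes did not overlap, and the log2 fold change of 0.91 ± 0.22 SE did not pass (adjusted p = 0.100, limma). *Gbp6*, of the chromosome 5 cluster, lay at 126.8 to 189.9 (median 140.7) and 194.1 to 354.5 (median 235.4), again apart, with a log2 fold change of 0.72 ± 0.20 SE (adjusted p = 0.197).

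*Gbp2* and *Gbp7*, both recruited to parasite vacuoles, overlapped between the genotypes. *Gbp2* ranged from 257.4 to 1008 in B6 WT (median 538.3) and from 414.3 to 934.8 in *Mertk*-/-V1 (median 779.2), the widest spread within B6 WT among the 9 (log2 fold change 0.43 ± 0.27 SE). *Gbp7* ranged from 829.5 to 977.7 (median 935.9) and from 877.1 to 1554 (median 1129), with a log2 fold change of 0.33 ± 0.15 SE. The *Gbp7* difference was 0.58 within replicates 1 to 3 and 0.08 within replicates 4 to 6. Neither gene passed (adjusted p = 0.811 and 0.690).

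Among the regulators, *Irgm1*, which acts in autophagy and mycobacterial defence, lay just outside the threshold. It was counted at 735.2 to 967.1 in B6 WT (median 885.0) and 1017 to 1996 in *Mertk*-/-V1 (median 1286), without overlap, and its log2 fold change was 0.64 ± 0.14 SE (adjusted p = 0.0505, limma). As an alternative the replicate number was used as a block, although the labels give no pairing. With it *Irgm1* passed (adjusted p = 0.0103, limma) beside *Gbp3* (adjusted p = 0.00735), 2 genes in place of 1, where 0.696% of all genes passed. DESeq2 called 5 of the 9 (*Gbp3*, *Gbp5*, *Gbp6*, *Irgm1* and *Iigp1*), beside 1.07% of all genes, and edgeR 1 (*Gbp3*), beside 0.398%.

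*Irgm2* was counted at 286.3 to 394.5 in B6 WT (median 330.1) and at 430.0 to 723.2 in *Mertk*-/-V1 (median 449.3), and these ranges did not overlap (log2 fold change 0.58 ± 0.21 SE, adjusted p = 0.521). *Igtp* ranged from 229.4 to 290.4 (median 257.0) and from 273.4 to 534.6 (median 295.1), overlapping, with a log2 fold change of 0.36 ± 0.22 SE (adjusted p = 0.811). The effector *Iigp1* had the largest fold of the 9, 2.55-fold, with 50.4 to 94.4 in B6 WT (median 73.4) and 123.5 to 344.1 in *Mertk*-/-V1 (median 185.3). The *Iigp1* ranges did not overlap, yet the spread was wide (log2 fold change 1.35 ± 0.39 SE, adjusted p = 0.239).

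Without *Mertk*-/-V1 replicate 2, none of the 9 genes passed, and their log2 fold changes were 0.22 (*Igtp*) to 1.18 (*Iigp1*). Markers of other cells differed between the same libraries. Of 14 macrophage and microglia markers, 3 passed (*C1qa*, *C1qb* and *Fcer1g*), beside 0.388% of all genes. The 14 had a median log2 fold change of 0.85, although their summed level overlapped (8274 to 13586 in B6 WT, 7713 to 12656 in *Mertk*-/-V1). Of 10 RPE markers 0 passed, and 5 had an unadjusted p under 0.05, beside 6.81% of all genes. Of the 10, 9 had negative fold changes (median -0.67, sums of 553739 to 917388 in B6 WT and 219103 to 678092 in *Mertk*-/-V1). Of 6 markers of choroidal fibroblasts 0 passed, with 6 positive (median 0.42), and of 10 endothelial markers 0, with 10 positive (0.28). Rod markers, those of Müller glia and astrocytes, and melanocyte markers had medians of 0.23, 0.28 and -0.38, with 0 passing. The part of any of these cells in the results above was not tested.

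In *Mertk*-/-V2, which lacks the 129P2 stretch, 0 of the 9 genes passed against B6 WT with limma, edgeR or DESeq2 (0.0690% of all genes tested passed with limma), and 6 had an unadjusted p under 0.05 (5.47% of all). All 9 had positive log2 fold changes, with a median of 0.57 beside 0.02 over all genes. In 7 of the 9 all 3 *Mertk*-/-V2 libraries lay above all 6 B6 WT libraries, as they did for 3.72% of all genes tested.

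*Gbp3* was counted at 1470, 1305 and 1626 in the 3 *Mertk*-/-V2 libraries, above the B6 WT maximum of 1267 (log2 fold change 0.62 ± 0.26 SE, adjusted p = 0.881). *Irgm1* was at 1118, 1279 and 1320, *Irgm2* at 464.9, 498.2 and 542.8, and *Igtp* at 374.7, 385.3 and 393.1, all above B6 WT. Their log2 fold changes were 0.50 ± 0.17, 0.57 ± 0.25 and 0.58 ± 0.27 SE. *Igtp*, the regulator whose values overlapped between B6 WT and *Mertk*-/-V1, was thus apart from B6 WT here. *Mertk*-/-V2 has replicates 1 to 3 only. The B6 WT means of replicates 1 to 3 and of 4 to 6 were 1114 and 829.2 for *Gbp3*, 306.2 and 373.1 for *Irgm2* and 62.2 and 87.0 for *Iigp1*, without overlap. Within replicates 1 to 3 alone the *Mertk*-/-V2 log2 fold changes of these genes were 0.40, 0.71 and 1.16.

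*Iigp1* was at 128.9, 133.2 and 156.6 (log2 fold change 0.92 ± 0.47 SE), *Gbp5* at 89.4, 92.5 and 109.2 (0.63 ± 0.27 SE) and *Gbp7* at 1160, 1152 and 1071 (0.29 ± 0.18 SE). These 3 were also above every B6 WT library. *Gbp6* (166.0, 249.5 and 261.5) and *Gbp2* (487.5, 519.4 and 719.1) overlapped with B6 WT, with log2 fold changes of 0.56 ± 0.24 and 0.14 ± 0.33 SE. The sign of the *Gbp2* value changed within replicates 1 to 3 alone (-0.23). Adjusted p-values for these 8 genes besides *Gbp3* were 0.725 to 0.999. Macrophage and microglia markers had a median log2 fold change of 0.57 with 0 of 14 passing and RPE markers one of 0.12. Their part, and that of the T and NK cell markers, was not tested. Without *Mertk*-/-V2 replicate 3, 0 of the 9 genes passed, the median was 0.51, and *Gbp2* turned to -0.0325.

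In *Mertk*-/-V3, 0 of the 9 genes passed with limma (0.0690% of all genes tested passed), 0 with edgeR and 1, *Iigp1*, with DESeq2 (0.329% of all genes). Unadjusted p-values were under 0.05 for 3 of the 9, *Gbp6*, *Irgm2* and *Iigp1*, beside 11.1% of all genes. *Iigp1* alone had every *Mertk*-/-V3 library above every B6 WT library (2.75% of all genes). The median log2 fold change was 0.43, beside -0.01 over all genes, and 8 of the 9 were positive.

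One library carried much of these differences. *Iigp1* was counted at 104.9, 695.8 and 100.3 in *Mertk*-/-V3, *Irgm2* at 365.9, 1042 and 416.4, and *Igtp* at 201.9, 673.4 and 308.5. Replicate 2 was the highest each time. With it the log2 fold changes were 1.40 ± 0.47, 0.68 ± 0.25 and 0.43 ± 0.27 SE (adjusted p = 0.449, 0.449 and 0.504), and without it 0.49, 0.21 and -0.04. *Gbp5* (66.9, 160.9 and 66.3) and *Gbp6* (164.0, 357.9 and 208.2) showed the same order, from 0.52 and 0.61 to 0.10 and 0.30 on the log2 scale.

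For *Gbp3* replicate 1 stood apart instead, with 747.4 against 1680 and 1590 in replicates 2 and 3. The latter were both above B6 WT (log2 fold change 0.40 ± 0.26 SE, and 0.18 within replicates 1 to 3). *Gbp7* followed the same order (813.2, 1435 and 1206, 0.28 ± 0.18 SE), as did *Irgm1* (873.5, 1225 and 996.4, 0.23 ± 0.17 SE). Without replicate 1 these differences were 0.78, 0.51 and 0.34, and without replicate 2 they were 0.20, 0.0995 and 0.0990, none passing. The median of the 9 genes was 0.78 without replicate 1 and 0.10 without replicate 2. *Gbp2* was the 1 gene with a negative value, at 513.2, 374.1 and 350.1 (-0.34 ± 0.33 SE). Macrophage and microglia markers had a median log2 fold change of 0.40 and RPE markers one of -0.37, none passing. The RPE marker median was 0.05 without replicate 1, with 7 of 10 above 0, and -0.47 without replicate 2, with 0 of 10 above 0. The part of these markers, and that of the T and NK cell markers, was not tested.

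Replicate 2 of *Mertk*-/-V3 was set beside its group over lists of interferon genes. Against the mean of the other *Mertk*-/-V3 libraries, the median log2 difference was 0.95 for the 9 genes (8 above 0) and 0.83 for 11 other GBPs and IRGs (8 above 0), but 0.13 for 21 further IFN-γ targets and 0.11 for 24 type I interferon targets, beside -0.03 over all genes. In *Mertk*-/-V1 replicate 2, which also led its group, the median difference was 0.61 for the 9 genes and 0.59 for the type I interferon targets, 24 of 24 above 0. For 15 genes of IFN-γ signalling, the median log2 fold change of *Mertk*-/-V3 against B6 WT was 0.12. It was 0.35 without *Mertk*-/-V3 replicate 1 and 0.03 without replicate 2. These are single libraries, described without a test.

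Between the knockout lines, 0 of the 9 genes passed in RPE when *Mertk*-/-V1 was set against the average of the other knockout lines by limma, edgeR or DESeq2, while 0.207% of all genes tested did. The log2 differences ran from -0.15 in *Igtp* to 0.55 ± 0.21 SE in *Gbp3* (adjusted p = 0.434), the 1 gene with an unadjusted p under 0.05 (9.56% of all genes). The other lines have replicates 1 to 3 only. Within those replicates 2 genes, *Gbp2* and *Irgm1*, passed beside 11.5% of all genes, and *Gbp3* differed by 0.72 (adjusted p = 0.0762). With the set of replicates as a term *Gbp2* and *Gbp3* passed beside 9.71% of all genes, and with the replicate number as a block *Gbp2*, *Gbp3* and *Irgm1* beside 12.4%. Without *Mertk*-/-V3 replicate 2, *Igtp* turned to 0.0861 and *Iigp1* rose from 0.19 to 0.65, without *Mertk*-/-V1 replicate 2 *Iigp1* was 0.0152, and without *Mertk*-/-V3 replicate 1 *Gbp3* was 0.36, with 0 of 9 passing each time.

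**Figure D3:**
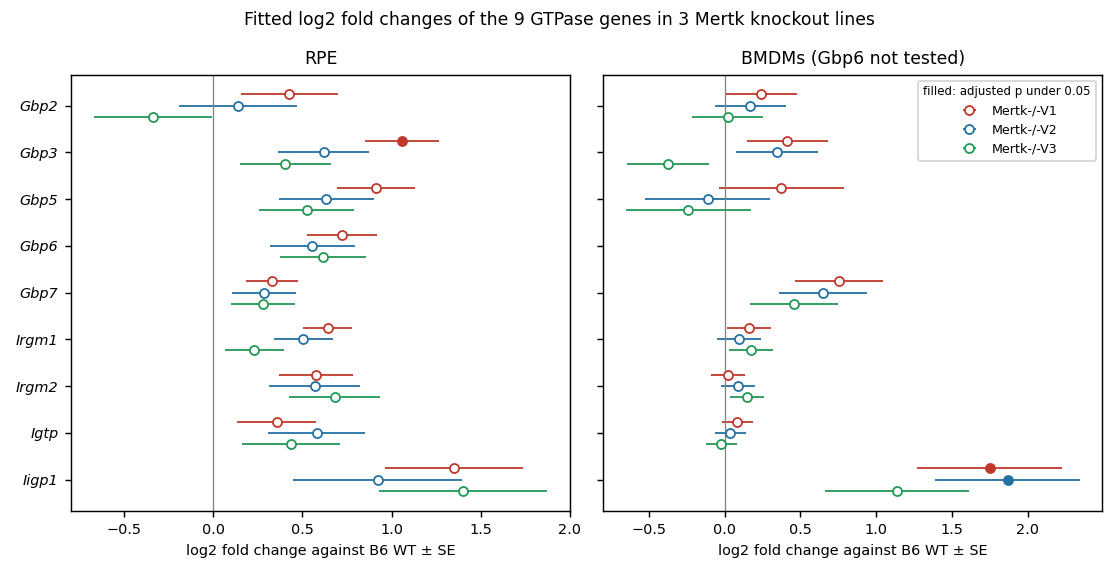
Fitted log2 fold change against B6 WT (horizontal axes, points) with its standard error (bars) for each gene and knockout line in RPE and BMDMs, from limma fits to 18 and 12 libraries. Filled points passed at an adjusted p under 0.05, which were Gbp3 in Mertk-/-V1 RPE and Iigp1 in Mertk-/-V1 and Mertk-/-V2 BMDMs.

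Around the 9 genes, the pathway was described with lists of related genes. IFN-γ itself (*Ifng*) had 0 reads in 29 of 30 libraries and 1 read in the remaining *Mertk*-/-V2 RPE library, under the limit of 3 reads. In RPE of *Mertk*-/-V1, 5 of 15 tested genes of IFN-γ signalling passed, all higher, beside 0.388% of all genes. The median log2 fold change of the 15 was 0.20. *Socs3*, an inhibitor of cytokine receptors, had 1.52 ± 0.24 SE, *Irf8*, a myeloid transcription factor, 0.88 ± 0.18 SE, and *Irf9*, a subunit of the ISRE-binding complex, 0.58 ± 0.10 SE (adjusted p = 0.00561, 0.0427 and 0.0104, limma). Leaving out any 1 of the 12 libraries left 3 or 4 of the 15 passing.

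The receptor chains *Ifngr1* (0.07 ± 0.21 SE) and *Ifngr2* (0.12 ± 0.19 SE), the kinases *Jak1* (0.15 ± 0.08 SE) and *Jak2* (0.14 ± 0.07 SE) and the factor *Irf1* (0.20 ± 0.32 SE) did not pass in *Mertk*-/-V1 (adjusted p of at least 0.722). None of the 15 passed in *Mertk*-/-V2 or *Mertk*-/-V3 RPE.

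Other family members had positive values too. Of 17 further GBPs and IRGs, 11 were tested in RPE and 0 passed in any knockout line. In the order of the lines, 6, 4 and 7 had an unadjusted p under 0.05, beside 6.81%, 5.47% and 11.1% of all genes. The median log2 fold changes were 0.85, 0.59 and 0.87. Without *Mertk*-/-V3 replicate 2 the last was 0.20, over 10 genes tested. Of 24 other IFN-γ targets 21 were tested, such as chemokine, antigen-presentation and immunoproteasome genes. Of these 1, the Fc receptor gene *Fcgr1*, passed in *Mertk*-/-V1 (1.13 ± 0.18 SE, adjusted p = 0.00506, limma), beside 0.388% of all genes, and 0 in the other lines. The *Fcgr1* difference was larger in RPE than in BMDMs by 1.03 ± 0.23 SE (adjusted p = 0.0442, limma). Of 15 tested genes of IFN-γ signalling, 1 passed there too, *Socs3*, also with the higher value in RPE. In the same comparison of tissues 3 of 14 macrophage and microglia markers passed (*C1qa*, *C1qb* and *Fcer1g*). Of the 14, 13 were above 0, with a median of 1.05, and 0.376% of all genes passed. Their part was not tested. The 21 IFN-γ targets had medians of 0.16, 0.09 and -0.04 in the order of the lines.

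Type I interferon targets are genes induced by IFN-α and IFN-β. Of 24 tested, 9 passed in *Mertk*-/-V1, all higher, beside 0.388% of all genes. Among the 9 were *Mx1*, an antiviral GTPase (1.90 ± 0.31 SE, adjusted p = 0.00775, limma), *Ifit1* (1.52 ± 0.19 SE, adjusted p = 0.000992), *Ifi44* (1.42 ± 0.22 SE, adjusted p = 0.00504) and *Trim30a* (1.34 ± 0.16 SE, adjusted p = 0.000439). In *Mertk*-/-V2, 5 passed, beside 0.0690% of all genes. The largest were *Ifi44* (2.00 ± 0.27 SE, adjusted p = 0.00302, limma), *Isg15* (1.93 ± 0.32 SE, adjusted p = 0.0260), *Trim30a* (1.59 ± 0.19 SE, adjusted p = 0.000951) and *Ifit1* (1.37 ± 0.23 SE, adjusted p = 0.0298). Leaving out any 1 of the 9 libraries left 1 to 4 passing, the lowest without *Mertk*-/-V2 replicate 3. The count in *Mertk*-/-V1 was 6 to 11 when 1 library was left out. In *Mertk*-/-V3 0 passed, beside 0.0690% of all genes. Medians were 0.75, 1.02 and 0.10. Many genes of this list also respond to IFN-γ, and 20 genes that act with GBPs and IRGs in autophagy and inflammasomes had medians of 0.01, 0.08 and -0.18 with 0 passing.

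**Figure D4:**
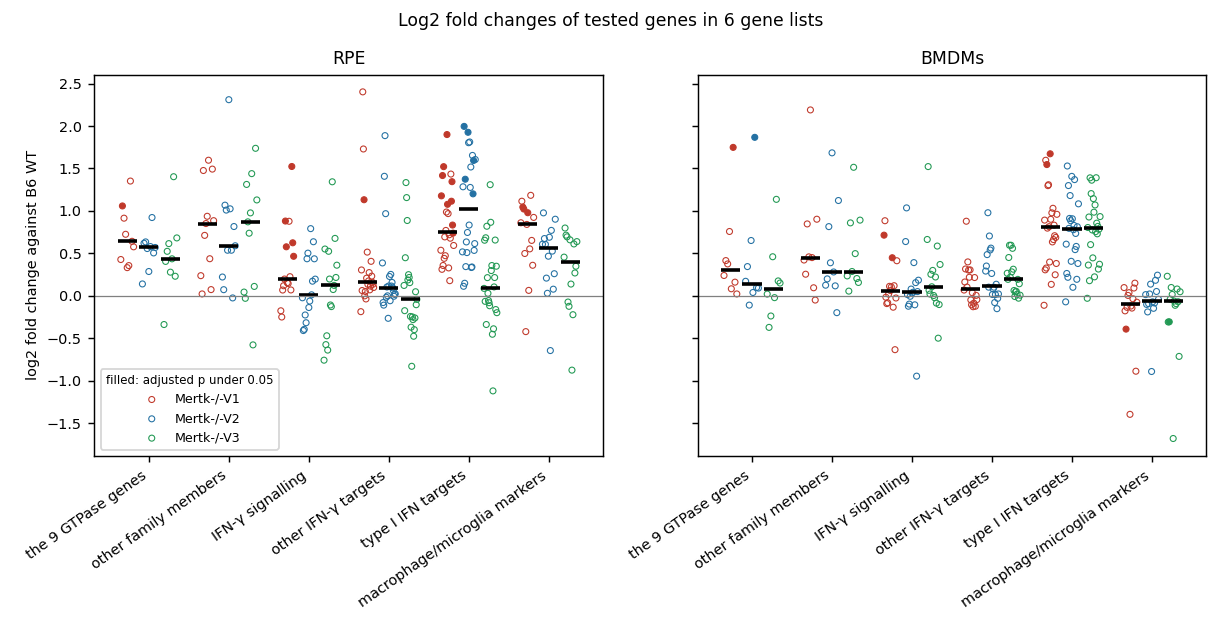
Log2 fold changes against B6 WT (vertical axes) of tested genes in 6 lists, with 1 point per gene, filled where the adjusted p was under 0.05, and a black bar at the median, for 3 knockout lines in RPE and BMDMs. In RPE the type I interferon targets have medians of 0.75, 1.02 and 0.10 in the order of the knockout lines, and the 9 GTPase genes 0.64, 0.57 and 0.43.

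In BMDMs, which were cultured apart from any tissue, *Iigp1*, with few reads, rose 3.36-fold in *Mertk*-/-V1 and 3.65-fold in *Mertk*-/-V2 and passed in both, whereas the abundant regulators *Irgm1*, *Irgm2* and *Igtp* did not pass and lay within 0.17 of 0 on the log2 scale in every line, and *Gbp6* was too low to test. In all, 8 of the 9 genes were tested among 13420.

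**Figure D5:**
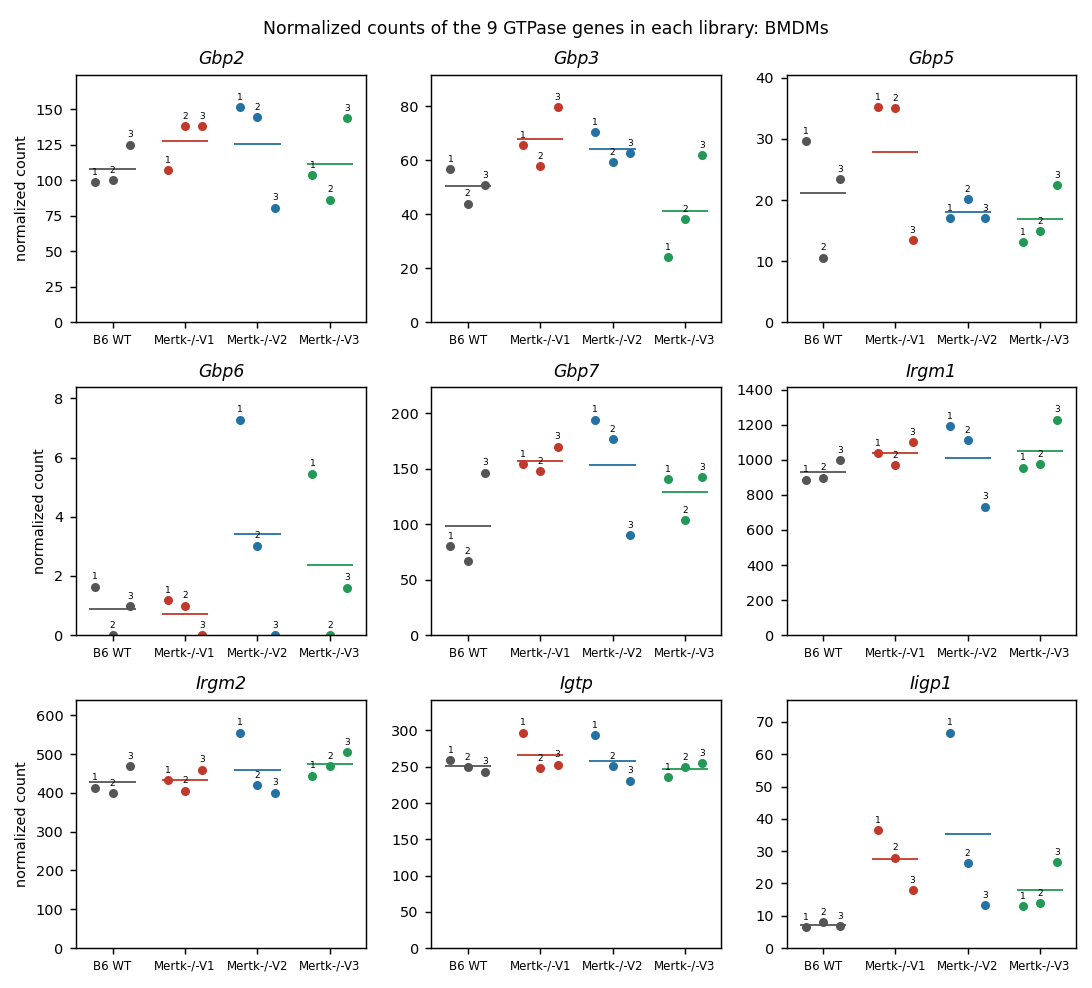
Normalized counts (vertical axes, from 0) of the 9 genes in each BMDM library, with the replicate number above each point and a bar at the mean of the 3 libraries of a genotype. For Iigp1 all 9 knockout libraries, from 13.1 to 66.7, lie above the 3 B6 WT libraries, from 6.58 to 8.15.

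*Iigp1* was counted at 6.58, 8.15 and 6.84 in B6 WT (7 to 10 reads), at 36.4, 27.99 and 17.997 in *Mertk*-/-V1, at 66.7, 26.2 and 13.3 in *Mertk*-/-V2 and at 13.1, 13.9 and 26.5 in *Mertk*-/-V3. Every knockout library lay above every B6 WT library. The log2 fold changes were 1.75 ± 0.48 SE in *Mertk*-/-V1 (adjusted p = 0.0426, limma), 1.87 ± 0.48 SE in *Mertk*-/-V2 (adjusted p = 0.0428) and 1.14 ± 0.48 SE in *Mertk*-/-V3 (adjusted p = 0.263).

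These calls depended on single libraries. In *Mertk*-/-V1 the *Iigp1* call was lost without any 1 of the 6 libraries compared (adjusted p = 0.0632 to 0.142, log2 fold change 1.52 to 2.01), and with edgeR (adjusted p = 0.0568) or a pseudocount of 5, but not with DESeq2 (0.0141). In *Mertk*-/-V2 it was lost without any 1 of B6 WT replicates 1, 2 and 3 or *Mertk*-/-V2 replicates 1 and 2, and it remained without *Mertk*-/-V2 replicate 3 (adjusted p = 0.00530), while DESeq2 gave no adjusted p for it.

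*Gbp7* was counted at 80.6, 66.8 and 146.5 in B6 WT, at 153.8, 148.0 and 169.8 in *Mertk*-/-V1, at 194.1, 176.5 and 90.2 in *Mertk*-/-V2 and at 140.9, 103.4 and 142.2 in *Mertk*-/-V3. All 3 *Mertk*-/-V1 libraries exceeded B6 WT, where replicate 3 was high. The log2 fold changes of 0.76 ± 0.29, 0.65 ± 0.29 and 0.46 ± 0.29 SE did not pass (adjusted p = 0.130, 0.217 and 0.478), and without B6 WT replicate 3 the *Mertk*-/-V1 difference was 1.09 and passed.

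*Gbp3* was counted at 56.7, 44.0 and 50.8 in B6 WT, 65.8, 58.0 and 79.9 in *Mertk*-/-V1, 70.4, 59.5 and 62.7 in *Mertk*-/-V2 and 24.03, 38.4 and 61.9 in *Mertk*-/-V3. The first 2 knockout lines lay above B6 WT, and none passed (0.41, 0.34 and -0.37, each ± 0.27 SE). *Gbp2* (80.7 to 151.6 over all 12 libraries) and *Gbp5* (10.6 to 35.2) overlapped between all genotypes, and *Gbp6* had 0 to 6 reads per library.

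The regulators overlapped throughout. *Irgm1* was at 887.0, 899.0 and 997.4 in B6 WT and 969.8 to 1102 in *Mertk*-/-V1, 733.3 to 1194 in *Mertk*-/-V2 and 955.8 to 1228 in *Mertk*-/-V3. *Igtp* had 230.8 to 297.1 and *Irgm2* 398.6 to 555.6 over the 12 libraries, with overlap between all genotypes. The largest difference of the 3 genes was 0.17 ± 0.15 SE, of *Irgm1* in *Mertk*-/-V3.

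Counts of passing genes in BMDMs have to be read against a high background. In *Mertk*-/-V1 1 of 8 passed, beside 7.07% of all genes, 2 had an unadjusted p under 0.05 (23.6%) and in 3 every knockout library lay above B6 WT (15.4%). In *Mertk*-/-V2 1 of 8 passed (4.61%), 2 had an unadjusted p under 0.05 (21.4%) and 2 lay apart (10.1%). In *Mertk*-/-V3 0 of 8 passed with limma (1.17%), 1 had an unadjusted p under 0.05 (15.9%) and 1 lay apart (12.2%). With edgeR or DESeq2 0 passed there as well, but DESeq2 gave no adjusted p for *Gbp5* and *Iigp1*. The median log2 fold changes of the 8 genes were 0.31, 0.13 and 0.08.

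Against the mean of the other lines, *Mertk*-/-V1 BMDMs had 0 of 8 genes passing (0.991% of all genes) and 0 with an unadjusted p under 0.05 (11.8%), by limma, with 0 passing by edgeR or DESeq2. The log2 differences were -0.10 (*Irgm2*) to 0.55 (*Gbp5*).

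Of the IFN-γ signalling genes in BMDMs, 2 of 15 passed in *Mertk*-/-V1 and 0 of 15 in the other lines. Of all genes tested, 7.07%, 4.61% and 1.17% passed in the order of the lines. The 2 genes were *Batf2* (0.71 ± 0.19 SE, adjusted p = 0.0379, limma) and *Nlrc5*, a regulator of MHC class I genes (0.45 ± 0.11 SE, adjusted p = 0.0245). *Ifngr1* (-0.02 ± 0.07 SE) and *Jak1* (0.06 ± 0.04 SE) did not pass in *Mertk*-/-V1. Of the type I interferon targets 2 of 24 passed in *Mertk*-/-V1, beside 7.07% of all genes, and 0 in the others. They were *Mx1* (1.67 ± 0.39 SE, adjusted p = 0.0227, limma) and *Ifit1* (1.55 ± 0.41 SE, adjusted p = 0.0376). These counts in *Mertk*-/-V1 fell to 0 without B6 WT replicate 1 or 2 or *Mertk*-/-V1 replicate 2, and that of type I targets also without *Mertk*-/-V1 replicate 1 or 3. The type I targets had median log2 fold changes of 0.81, 0.79 and 0.79. Of 9 tested other GBPs and IRGs and 18 tested IFN-γ targets 0 passed in any line, with medians of 0.45, 0.28 and 0.29 and of 0.08, 0.12 and 0.19. Of the 20 genes that act with GBPs and IRGs, 1 passed in *Mertk*-/-V1 and in *Mertk*-/-V2, beside 7.07% and 4.61% of all genes. It was *Nlrp3*, an inflammasome sensor (0.26 ± 0.07 SE, adjusted p = 0.0341, and 0.27 ± 0.07 SE, adjusted p = 0.0428, limma). *Nlrp3* passed in neither line without B6 WT replicate 1 or 2. The T and NK cell markers summed to 21.2 to 38.1 in B6 WT, 38.0 to 56.4 in *Mertk*-/-V1, 22.8 to 55.8 in *Mertk*-/-V2 and 73.1 to 87.4 in *Mertk*-/-V3. Of these 11 markers, 10 had a mean under 10 in BMDMs, so these sums do not measure a number of cells. The 1 marker tested passed in no line, and the part of these markers was not tested.

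Within *Mertk*-/-V2 BMDMs, replicate 1 was the highest for 7 of 8 tested genes and replicate 3 lay below the mean of the others for 8 of 8, and replicate 3 of *Mertk*-/-V3 was the highest for 8 of 8. The type I interferon targets moved with them: against the mean of the other libraries of its genotype, 24 of 24 were higher in *Mertk*-/-V2 replicate 1 (median log2 difference 0.96), 0 of 24 in *Mertk*-/-V2 replicate 3 (-1.30) and 24 of 24 in *Mertk*-/-V3 replicate 3 (0.78). The medians of the GTPase genes were 0.42, -0.46 and 0.47.

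Whether the knockouts affected RPE and BMDMs differently was tested as the difference between the fold changes in 1 fit to all 30 libraries, over the 12513 genes that were tested in both tissues. Of the 8 genes, 0 passed for *Mertk*-/-V1 (0.376% of all genes), *Mertk*-/-V2 (0.120%) or *Mertk*-/-V3 (0.0400%). At an unadjusted p under 0.05 there was 1 of 8 for *Mertk*-/-V1, *Irgm1* (8.79% of all genes), and 0 for *Mertk*-/-V2 (10.7%) and *Mertk*-/-V3 (5.84%), and edgeR on the same libraries also called 0. For *Gbp3* the *Mertk*-/-V1 effect was higher in RPE by 0.64 ± 0.36 SE on the log2 scale (adjusted p = 0.662) and for *Iigp1* it differed by -0.40 ± 0.66 SE (adjusted p = 0.955). A call in 1 tissue and not in the other is not by itself a difference between tissues.

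Outside the 9, the genes whose centred log2 profile lay closest to the mean profile of the 9 genes over the 18 RPE libraries included *Cybb* (root mean square difference 0.20), *Irf9* (0.20), *Xaf1* (0.21) and *Stat2* (0.21), among 18823 genes. Of the 9 genes themselves, *Irgm1* (0.17), *Gbp6* (0.19) and *Irgm2* (0.20) were closest and *Gbp2* (0.56) and *Iigp1* (0.54) furthest. Over the 12 BMDM libraries the closest of 13412 genes to the profile of the 8 tested members were *Ifi211* (0.11), *Gm4070* (0.11), *Gm12250* (0.12), *Ifi204* (0.13) and *Slfn8* (0.13). The SD of the mean profile itself was 0.40 in RPE and 0.29 in BMDMs.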

How the data were processed

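The members and the gene lists were chosen with earlier results of these data known. RNA of 18 RPE and 12 BMDM libraries was sequenced in paired-end reads. The authors used btrim for trimming, STAR and the GRCm38 genome for alignment and DESeq2 for normalization, while counter, annotation and versions are not given in the sources used here. The deposited values are a gene signal, counts divided by 1 DESeq2 size factor per library, for 55573 genes per table and with 0 sample columns left unused. Dividing by the smallest step gave whole reads (tolerance 0.001) for 100% of values in every library. Positions come from GENCODE mouse release 21, promoter sequences from RefSeq, and transcript identities from BLAST 2.17.0.

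Log2(value + 1) was fitted with limma 3.58.1 (empirical Bayes with a mean trend, R 4.3.3), the genotypes of a tissue in 1 fit, for genes whose mean reached 10. Benjamini-Hochberg adjustment covered all genes tested, and fold changes on this scale understate those of low genes. Alternatives were run with edgeR 4.0.16 and DESeq2 1.42.0 on the recovered reads, and the fits were tested on simulated data. Comparisons with B6 WT share its libraries. P-values measure the spread between libraries labelled as biological replicates. The fit reported had no term for the replicate number, which was used as a block only in an alternative. Same-numbered B6 WT and *Mertk*-/-V1 RPE libraries had deviations from the group means that correlated at 0.119 to 0.724 in 6 of 6 pairs. A pairing is not established, since the labels give no shared litter or day and 3 of the 12 libraries correlated best with their own number. A count of 0 allows up to 3 reads, and such limits cover counting error only. Named were all 9 genes, up to 4 passing genes per pathway list and comparison with the largest fold changes, the genes from *Ifng* to *Irf1* of its signalling, *Mertk*, and the 5 genes closest in profile per tissue, of which 1 gene that the rule named is not reported here; the marker genes *Rpe65*, *C1qa*, *C1qb* and *Fcer1g* and the partner gene *Nlrp3* were named after their values were seen.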

Additional observations from a re-analysis of the deposited data

Results flagged for a closer look

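In groups of 6 libraries, a library was singled out where its gap to the nearest other library exceeded a share of 0.625 of the group's range (Dixon's test). Of 18 groups tested this way, 2 exceeded it, and chance does so in about 1 group in 20. *Igtp* in *Mertk*-/-V1 RPE had a share of 0.708, from replicate 2 at 534.6 against 273.4 to 349.7 in the other 5 libraries. *Irgm1* in B6 WT RPE had a share of 0.635, from replicate 5 at 735.2 against 882.5 to 967.1 in the others. Groups of 3 libraries, among them *Mertk*-/-V3 RPE with its high replicate 2, are too small for this test.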

How the results depend on the processing

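Over the alternatives tried, 1191 fold changes of single genes kept their direction and side of the threshold, 45 came to pass, 29 no longer passed and 45 changed sign. For *Mertk*-/-V1 against B6 WT in RPE, 1 gene passed in the fit reported, 2 with a pseudocount of 5, with only the groups compared, with the replicate block or with the set of replicates as a term, 3 with array quality weights, 5 with DESeq2, and 0 within replicates 1 to 3, within replicates 4 to 6 or with the study's fold threshold added. Leaving out 1 replicate gave 0 to 2. For *Mertk*-/-V2 in RPE array quality weights gave 2 in place of 0. For *Mertk*-/-V3 in RPE, DESeq2 gave 1, array quality weights 9 and the replicate block 4 in place of 0, but the RPE weights did not converge, gave *Mertk*-/-V3 replicate 2 a weight of 41.6 against at most 3.04 in any other library, and called 12592 of all 18832 genes there, while the replicate block called 5619. For *Mertk*-/-V1 against the other lines in RPE, array quality weights gave 5 (5444 of all genes), the replicate block 3 (2329 of all genes), and the set of replicates as a term and replicates 1 to 3 alone 2 each, in place of 0. In BMDMs, *Mertk*-/-V1 had 0 in place of 1 with a pseudocount of 5, no filter, edgeR or the replicate block, and 2 with array quality weights, and leaving out 1 replicate gave 0 to 1. *Mertk*-/-V2 had 0 in place of 1 with a pseudocount of 5, no filter, only the groups compared, DESeq2 or the replicate block (DESeq2 gave *Gbp3*, *Gbp5* and *Iigp1* no adjusted p), and 2 with array quality weights, and leaving out 1 replicate gave 0 to 2. *Mertk*-/-V3 had 2 in place of 0 with array quality weights. Only for B6 WT with *Mertk*-/-V1 in RPE were the correlations of same-numbered libraries all positive. For the other pairs of genotypes they had mixed or negative signs. In no pair of genotypes did every library correlate best with its own number (from 0 of 6 to 4 of 6 in BMDMs, and 3 of 12 for B6 WT with *Mertk*-/-V1 in RPE).

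*Gbp2* in *Mertk*-/-V2 RPE was -0.21 with the replicate block or with the set of replicates as a term, -0.23 within replicates 1 to 3, and -0.0603 to 0.33 when 1 replicate was left out. With 1 replicate left out, *Igtp* in *Mertk*-/-V3 RPE was -0.0411 to 0.83. In *Mertk*-/-V1 BMDMs *Gbp5* was -0.0378 to 0.81 and *Irgm2* -0.0272 to 0.0912. In *Mertk*-/-V2 BMDMs *Gbp5* was -0.52 to 0.18, *Irgm1* -0.0374 to 0.31, *Irgm2* -0.0556 to 0.18 and *Igtp* -0.0567 to 0.12. In *Mertk*-/-V3 BMDMs *Gbp2* was -0.18 to 0.19, *Gbp5* -0.65 to 0.0485 and *Igtp* -0.0458 to 0.00916. With array quality weights *Gbp5* in BMDMs was 0.19 for *Mertk*-/-V2 and 0.0863 for *Mertk*-/-V3, and with RPE replicates 1 to 3 only the tissue difference of *Iigp1* for *Mertk*-/-V1 turned from -0.40 to 0.0085 and that of *Irgm1* for *Mertk*-/-V3 to -0.0105. For *Mertk*-/-V1 against the other lines in RPE, *Iigp1* was -0.0542 with edgeR, -0.0487 with DESeq2 and -0.63 with array quality weights, with which *Gbp5* was -0.12 and *Gbp6* -0.17. With 1 replicate left out, *Iigp1* was -0.0479 to 0.65, *Gbp7* -0.0661 to 0.14, *Irgm2* -0.19 to 0.19 and *Igtp* -0.35 to 0.0861 there. In BMDMs the same comparison gave -0.0250 for *Irgm1* with array quality weights, and with 1 replicate left out -0.0841 to 0.0914 for *Irgm1*, -0.000522 to 0.27 for *Gbp2*, -0.00763 to 0.12 for *Igtp* and -0.0175 to 0.54 for *Iigp1*. The causes were not tested. Depth limits *Iigp1* and *Gbp6* in BMDMs, with 7 to 10 and 0 to 2 reads per B6 WT library.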
